A study of Homo sapiens with 4 samples.

Results

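The RNA levels of 10 regulators of epithelial-mesenchymal transition (EMT) were read in the 4 libraries of an RNA-seq series on colorectal cancer cells. The genes were taken by name from a table of 58735 genes, and all 10 were found. They comprise the EMT-driving transcription factors ZEB1, ZEB2, SNAI1, SNAI2 and TWIST1, the epithelial splicing regulators ESRP1 and ESRP2, and the epithelial transcription factors GRHL2, OVOL1 and OVOL2. The cells were the human colorectal cancer lines HCT116 and LOVO, both given as wild type in genotype. HCT116 adherent cells, HCT116 spheroids, LOVO adherent cells and LOVO spheroids were each sequenced once. The adherent cells received no treatment and were kept in RPMI-1640 with 10% fetal bovine serum. The spheroids were grown in ultralow attachment dishes in serum-free DMEM/F12 with B27, N2, bFGF and EGF, and were treated, per their labels, at 1 mg/ml of an unnamed agent, whereas the text of the study names oxaliplatin at 1 μg/ml. Growth form, medium and drug therefore changed together and cannot be told apart.

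EMT is the loss of cell-cell junctions and polarity by epithelial cells and their gain of mesenchymal, motile traits. The ZEB, SNAI and TWIST factors are DNA-binding proteins that repress junction genes such as CDH1 (E-cadherin) through E-box sequences, and ZEB1 and ZEB2 are themselves held down by the microRNAs of the miR-200 family. GRHL2 and the OVOL factors maintain epithelial genes and counteract ZEB1, while ESRP1 and ESRP2 are RNA-binding proteins that set the epithelial exon choice in transcripts such as FGFR2, CD44, CTNND1 and ENAH.

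Levels are given in FPKM, fragments divided by gene length in kilobases and by the size of the library in units of 1000000 fragments. The length counts the exonic bases of all annotated transcripts of a gene, from 1686 in SNAI1 (1 transcript) to 25058 in ZEB2 (48 transcripts). Orders and sums over different genes are therefore rough, and a gene with many transcripts can come out too low. Multiplied by gene length, the values were whole multiples of 1 read, and the reads on genes ranged from 15483569 in HCT116 spheroids to 20429147 in HCT116 adherent cells. With 1 library for each condition no difference within a line has a replicate check, and no p-value is given for it. Intervals are exact 95% intervals of the reads and cover counting error only. A difference is called here when it exceeds 1 on the log2(FPKM + 1) scale, on which changes of weakly expressed genes come out too small. It is set beside the share of the 14429 genes whose mean FPKM was at least 1 that exceeded the same value. Since these are bulk samples, fewer cells of a type and less RNA per cell cannot be told apart.

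The libraries labelled LOVO went against a colon epithelial label in several markers, and the name LOVO is used below only as the label they carry. CDX2, the transcription factor that defines intestinal epithelium, had 0 reads in both of them, against 3.84 and 3.12 FPKM in HCT116 adherent cells and HCT116 spheroids. Of 10 markers of intestinal epithelium, 5 were at 0 reads in the adherent and 4 in the spheroid library labelled LOVO, whereas KRT8 (189 and 81.6 FPKM) and KRT18 (122 and 98.8 FPKM) were present. The summed level of 8 fibroblast markers was 54.1 and 72.8 FPKM in the libraries labelled LOVO and 5.64 and 16.1 FPKM in those of HCT116. LUM made up most of it (31.4 and 50.4 FPKM), and COL1A2, a defining fibroblast collagen, had at most 0.00446 FPKM in the libraries labelled LOVO. Markers of leukocytes summed to at most 1.997 FPKM in any library, and those of endothelium to at most 7.84 FPKM, most of the latter being PECAM1 in LOVO spheroids. Of the intestinal markers at 0 reads in LOVO adherent cells, only CDX2 was above 1 FPKM in HCT116. CDX1, VIL1, CDH17 and GPA33 were low in HCT116 as well, at most 0.381 FPKM, with VIL1 at 0.0425 and 0.0946 FPKM. Of all 58735 genes, 24306 had any read in LOVO adherent cells and 27070 in LOVO spheroids. The part of the identity of the libraries labelled LOVO in the differences between the lines was not tested. The ratios within HCT116 do not use the libraries labelled LOVO. The counts and shares within HCT116 do depend on them, because the mean FPKM of the filter is taken over all 4 libraries.

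**Figure D1:**
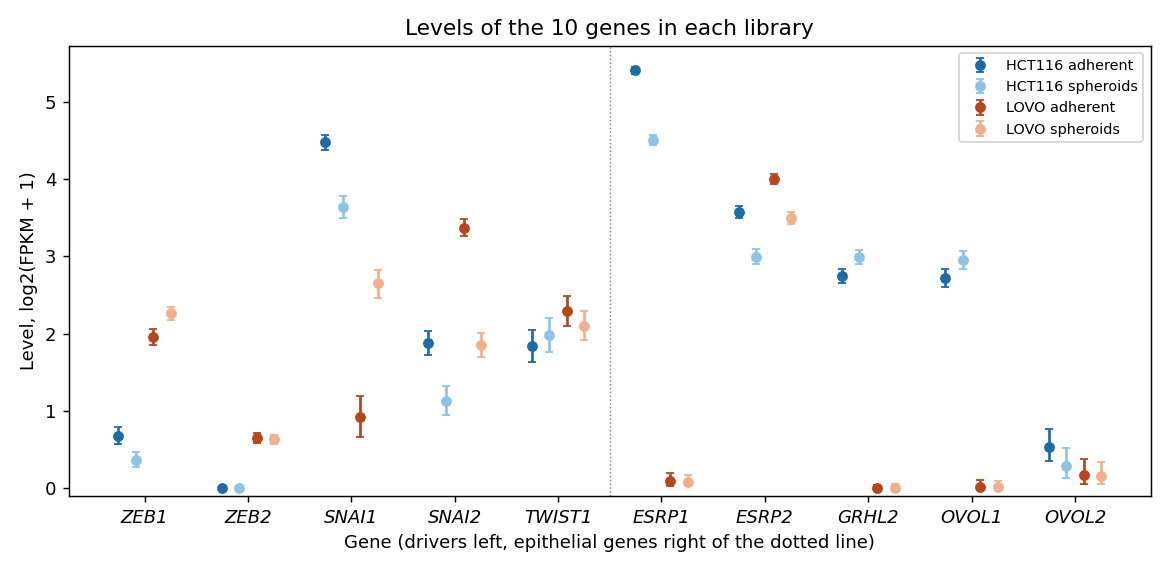
Level of each of the 10 genes as log2(FPKM + 1) (vertical axis) in the 4 libraries (colours), with bars for the exact 95% counting interval of the reads. ESRP1, GRHL2 and OVOL1 lie above 2.5 in both HCT116 libraries and below 0.2 in both libraries labelled LOVO, ZEB1 and ZEB2 show the opposite order, and TWIST1 and ESRP2 are present in all 4.

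ZEB1 (ENSG00000148516, plus strand of chromosome 10, 31318495 to 31529814 in GRCh38) had 0.601 FPKM in HCT116 adherent cells, 0.289 in HCT116 spheroids, 2.89 in LOVO adherent cells and 3.80 in LOVO spheroids. Behind these values lay 106, 42, 448 and 661 reads. Both libraries labelled LOVO were thus above both HCT116 libraries, 4.80-fold in adherent cells and 13.1-fold in spheroids. The 2 lines moved in opposite directions from adherent cells to spheroids. The log2 ratio was -1.06 (95% counting interval -1.61 to -0.53) in HCT116, where the level was low throughout, and 0.40 (0.22 to 0.57) in LOVO. On the log2(FPKM + 1) scale these are differences of -0.31 and 0.30, and neither was called. In ZEB1, 366 of 8650 exonic bases overlap the antisense gene ZEB1-AS1, whose own level was 0.794, 1.04, 0.888 and 3.14 FPKM in the same order, and since no strand is stated for the counting, reads in that stretch cannot be told apart.

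ZEB2 (ENSG00000169554, minus strand of chromosome 2, 144364364 to 144524583), the paralog of ZEB1, had 0 reads in both HCT116 libraries. A count of 0 allows up to 0.00587 FPKM in HCT116 adherent cells and 0.00713 in HCT116 spheroids, taken as 3 reads in each library. In LOVO adherent cells it reached 0.567 FPKM (255 reads) and in LOVO spheroids 0.551 FPKM (278 reads), at least 96.6-fold and at least 77.4-fold higher. The 2 LOVO values did not differ beyond counting error, with a log2 ratio of -0.04 (-0.29 to 0.21). ZEB2 stayed below the mean of 1 FPKM and is left out of the counts of called genes.

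The miR-200 family pairs with the transcripts of ZEB1 and ZEB2 through its seed, and its sequences are shown because the ZEB genes and the miR-200 host genes were seen in opposite lines. The mature microRNAs below are from RefSeq (GRCh38.p14), with the seed, bases 2 to 8, in capitals. They fall into 2 seed groups that differ in 1 base.
miR-200b-3p: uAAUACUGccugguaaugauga
miR-200c-3p: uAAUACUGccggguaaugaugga
miR-429: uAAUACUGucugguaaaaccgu
miR-200a-3p: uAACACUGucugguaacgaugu
miR-141-3p: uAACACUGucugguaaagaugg

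Matches to these seeds were counted in the GENCODE 29 transcript with the longest 3'UTR of each gene. The 3'UTR of ZEB1, of 2549 bases, held 9, of which 6 match miR-200b, miR-200c and miR-429 and 3 match miR-200a and miR-141. The 3'UTR of ZEB2, of 5370 bases, also held 9, with 5 and 4 of the same kinds. Among 19145 3'UTRs searched, 28.2% held 1 or more matches and 6 held 9 or more. Of those between 0.8 and 1.2 times as long, 46.5% held 1 or more for the length of ZEB1 and 72.2% for the length of ZEB2. Of the other 8 genes, ESRP1 held 2, GRHL2 and SNAI2 held 1 each, and TWIST1, SNAI1, ESRP2, OVOL1 and OVOL2 held 0. As examples, the first 2 matches in ZEB1 and 1 match of each kind in ZEB2 are shown within 30 bases of transcript-strand sequence (GRCh38), the match in capitals.
ZEB1, chr10:31527621-31527650: gttttatcttatCAGTATTatcactcttat
ZEB1, chr10:31527715-31527744: ctaaatccgcttCAGTATTttattatgttt
ZEB2, chr2:144389226-144389255, minus strand: aaaaattttgtaCAGTGTTaaggcctaaaa
ZEB2, chr2:144389042-144389071, minus strand: actaccatacatCAGTATTtttattattat
A match is a description of the sequence, and no microRNA was measured.

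Of 8 genes read for the miR-200 family, all 8 had 0 reads in both libraries labelled LOVO. In these libraries 24306 (adherent) and 27070 (spheroids) of the 58735 genes had any read. The 8 are MIR200A, MIR200B, MIR200C, MIR141, MIR429, MIR200CHG, TTLL10 and TTLL10-AS1. TTLL10 and TTLL10-AS1 had at most 0.302 FPKM in HCT116, and whether they host the family was not examined. MIR200CHG, the host transcript of miR-200c and miR-141, had 1.82 FPKM in HCT116 adherent cells and 2.21 FPKM in HCT116 spheroids, from 13 reads each. MIR429 had 2.36 and 2.87 FPKM, from 4 reads each. In the HCT116 libraries MIR200C also had 0 reads, MIR141 had 1 and 0, MIR200A had 4 and 1 and MIR200B had 3 and 2. These are counts of RNA fragments over the genes in mRNA libraries and not levels of mature microRNA, and their low read numbers make the difference between growth forms undetectable at this depth. For MIR200CHG in HCT116 the spheroid to adherent log2 ratio was 0.28 with an interval from -0.95 to 1.51.

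SNAI1 (Snail, ENSG00000124216, plus strand of chromosome 20, 49982999 to 49988886) was the EMT driver with the highest level in HCT116. It had 21.2 FPKM in HCT116 adherent cells, 11.5 in HCT116 spheroids, 0.893 in LOVO adherent cells and 5.28 in LOVO spheroids, from 729, 325, 27 and 179 reads. The adherent library labelled LOVO was the lowest of the 4. In HCT116 the spheroids were 1.85-fold lower than adherent cells, with a log2 ratio of -0.89 (-1.08 to -0.70), and in LOVO they were 5.91-fold higher, with a log2 ratio of 2.56 (1.97 to 3.20). On the log2(FPKM + 1) scale the differences were -0.83 and 1.73, so that only the rise in LOVO was called, and it lay at percentile 97.2 of all genes compared. No exonic base of SNAI1 overlaps another annotated gene.

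SNAI2 (Slug, ENSG00000019549, minus strand of chromosome 8, 48917604 to 48921740), a paralog of SNAI1, had 2.68 FPKM in HCT116 adherent cells, 1.19 in HCT116 spheroids, 9.35 in LOVO adherent cells and 2.62 in LOVO spheroids. The reads numbered 185, 68, 569 and 179. Spheroids were below adherent cells in both lines, 2.24-fold in HCT116 and 3.57-fold in LOVO. The log2 ratios were -1.17 (-1.59 to -0.76) and -1.83 (-2.09 to -1.59), and the differences on the log2(FPKM + 1) scale were -0.75 and -1.52, of which the second was called. With smaller pseudocounts of 0.1 and 0.01 the difference in HCT116 passed 1 as well, at -1.10 and -1.16. SNAI1 and SNAI2 thus had opposite directions in LOVO, and the order of the pair differed between those libraries. SNAI2 exceeded SNAI1 in LOVO adherent cells and lay below it in LOVO spheroids.

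TWIST1 (ENSG00000122691, minus strand of chromosome 7, 19020991 to 19117672), a basic helix-loop-helix factor, varied least among the EMT drivers that passed the filter on low values. It had 2.58, 2.96, 3.89 and 3.30 FPKM in HCT116 adherent cells, HCT116 spheroids, LOVO adherent cells and LOVO spheroids, from 101 to 142 reads. Spheroids did not differ from adherent cells beyond counting error in HCT116, with a log2 ratio of 0.20 (-0.21 to 0.60), or in LOVO, with -0.24 (-0.59 to 0.11). LOVO adherent cells were 1.51-fold above HCT116 adherent cells (1.17 to 1.96).

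The make-up of the EMT drivers differed between the libraries. Their summed level was 27.1 FPKM in HCT116 adherent cells, 15.9 in HCT116 spheroids, 17.6 in LOVO adherent cells and 15.5 in LOVO spheroids. SNAI1 made up 78.4% and 72.1% of the sum in HCT116 adherent cells and HCT116 spheroids. In the libraries labelled LOVO, SNAI2 made up 53.2% in adherent cells and 16.9% in spheroids, whereas SNAI1 made up 5.07% and 33.9%, and ZEB1 made up 16.4% and 24.4%.

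**Figure D2:**
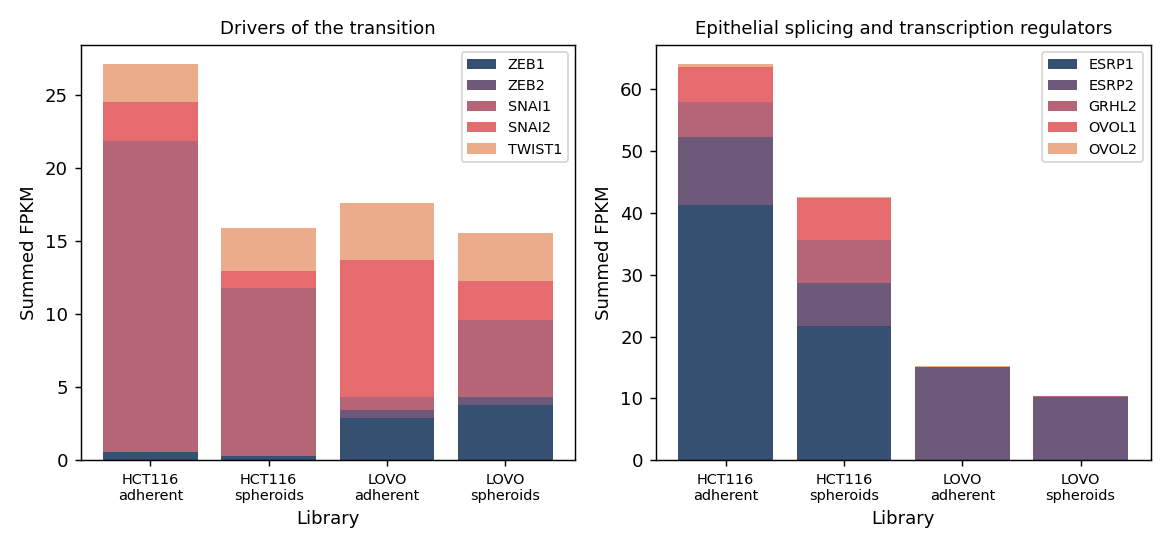
Summed FPKM (vertical axes, from 0) of the 5 EMT drivers (left) and of the 5 epithelial splicing and transcription regulators (right) in each library, with each gene as a stacked part. SNAI1 fills most of the driver bars in HCT116 and ESRP2 fills 98.6% and 98.1% of the epithelial bars in the libraries labelled LOVO.

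ESRP1 (ENSG00000104413, plus strand of chromosome 8, 94641074 to 94707466) had the highest level of the 10 genes in HCT116, with 41.3 FPKM in adherent cells (4105 reads) and 21.7 in spheroids (1781 reads). In LOVO adherent cells and LOVO spheroids it had 0.0686 and 0.0612 FPKM, from 6 reads each. HCT116 spheroids were 1.90-fold below HCT116 adherent cells, with a log2 ratio of -0.93 (-1.01 to -0.85) and a difference of -0.90 on the log2(FPKM + 1) scale, which was not called and lay at percentile 4.12 of all genes compared. The libraries labelled LOVO were 602-fold lower in adherent cells and 355-fold lower in spheroids. At 6 reads a change between growth forms in LOVO was not detectable (log2 ratio -0.17, -2.07 to 1.74).

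ESRP2 (ENSG00000103067, minus strand of chromosome 16, 68229111 to 68238102), which acts on largely the same exons as ESRP1, did not follow it across the lines. It had 10.9 FPKM in HCT116 adherent cells, 6.99 in HCT116 spheroids, 15.0 in LOVO adherent cells and 10.3 in LOVO spheroids, from 653 to 1494 reads. ESRP2 was the highest of the 10 genes in both libraries labelled LOVO, 1.37-fold and 1.47-fold above the HCT116 library of the same growth form. Spheroids lay below adherent cells in both lines, by a similar amount. The log2 ratio was -0.64 (-0.78 to -0.51) in HCT116 and -0.55 (-0.66 to -0.43) in LOVO, and neither difference was called. A short stretch of its exons, 109 bases on the same strand and 149 on the other of 5563, overlaps other genes, among them NFATC3 at 2.10 to 7.004 FPKM. The summed ESRP1, ESRP2, GRHL2, OVOL1 and OVOL2 level was 64.0 and 42.6 FPKM in HCT116 adherent cells and HCT116 spheroids, against 15.2 and 10.5 FPKM in LOVO adherent cells and LOVO spheroids.

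GRHL2 (Grainyhead-like 2, ENSG00000083307, plus strand of chromosome 8, 101492432 to 101669726) had 5.73 FPKM in HCT116 adherent cells (708 reads) and 6.94 in HCT116 spheroids (707 reads). In LOVO adherent cells it had 0 reads and in LOVO spheroids 1 read. The adherent libraries therefore differed at least 208-fold, with 3 reads taken as the limit, and HCT116 spheroids exceeded LOVO spheroids 847-fold with a counting interval from 151 to 33489. Within HCT116 the spheroids were 1.21-fold above adherent cells, a log2 ratio of 0.28 (0.12 to 0.43). That direction was the opposite of that of ESRP1 and ESRP2.

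OVOL1 (ENSG00000172818, plus strand of chromosome 11, 65787022 to 65797219), a zinc finger repressor of ZEB1, had almost the same profile as GRHL2. It had 5.57 FPKM in HCT116 adherent cells (437 reads), 6.73 in HCT116 spheroids (435 reads), and 1 read in each library labelled LOVO. HCT116 exceeded LOVO 384-fold in adherent cells (68.6 to 15221) and 521-fold in spheroids (93.0 to 20623). In HCT116 the spheroids were 1.21-fold above adherent cells, with a log2 ratio of 0.27 (0.08 to 0.47). Of its 3849 exonic bases, 1044 overlap an antisense gene that had 0 reads. OVOL2 (ENSG00000125850, minus strand of chromosome 20, 17956979 to 18059188) was low in all libraries, with 0.451, 0.219, 0.128 and 0.114 FPKM from 20, 8, 5 and 5 reads. It did not differ between growth forms beyond counting error in HCT116 (log2 ratio -1.04, -2.44 to 0.20) or LOVO (-0.17, -2.29 to 1.95), and 59 of its 2175 exonic bases are shared with SNX5.

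**Figure D3:**
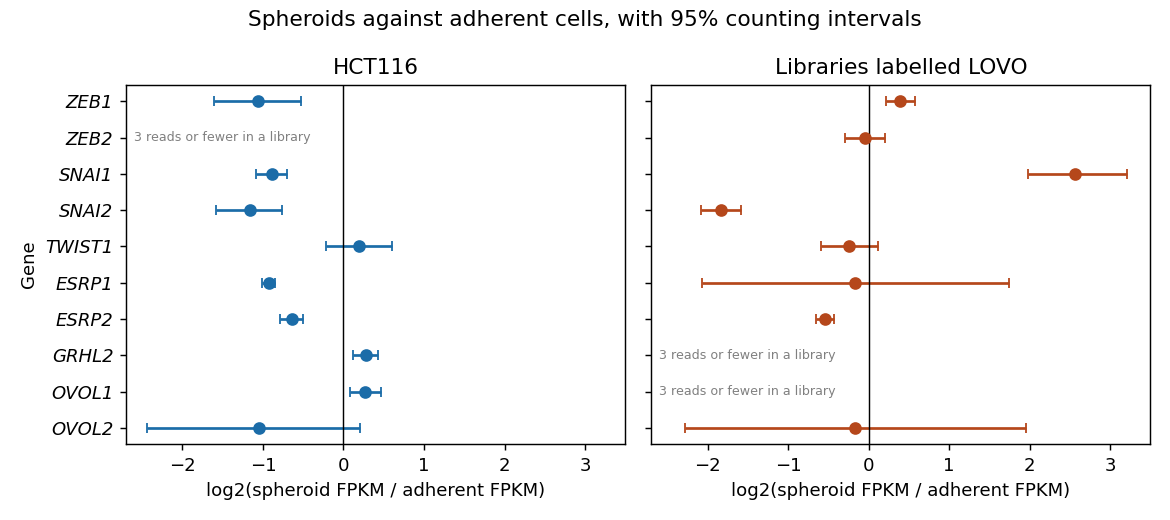
Log2 ratio of spheroid to adherent FPKM (horizontal axis) of each gene in HCT116 (left) and in the libraries labelled LOVO (right), with exact 95% counting intervals; genes with 3 reads or fewer in a library are not drawn. SNAI2 and ESRP2 lie below 0 in both lines, and SNAI1 and ZEB1 lie on opposite sides of 0.

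Ordered by level, HCT116 adherent cells ran ESRP1, SNAI1, ESRP2, GRHL2, OVOL1, SNAI2, TWIST1, ZEB1, OVOL2 and ZEB2. The counting intervals of GRHL2 and OVOL1 overlapped there, as did those of SNAI2 and TWIST1 and those of ZEB1 and OVOL2. Overlap does not show that levels are equal, and no ratio between genes was given an interval. In HCT116 spheroids the order was the same apart from TWIST1, which lay above SNAI2. There ESRP2 (6.99 FPKM), GRHL2 (6.94) and OVOL1 (6.73) had intervals that overlapped. The libraries labelled LOVO began with ESRP2, followed in adherent cells by SNAI2, TWIST1 and ZEB1 and in spheroids by SNAI1, ZEB1 and TWIST1. SNAI1 and ZEB2 in adherent cells, and ZEB1, TWIST1 and SNAI2 in spheroids, had intervals that overlapped from one gene to the next. The libraries ended with OVOL2, ESRP1, OVOL1 and GRHL2, whose intervals overlapped from one gene to the next.

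Counted over the 8 genes that reached a mean FPKM of 1, spheroids and adherent cells of HCT116 differed past 1 in 0 genes in either direction, against 2.19% of all genes compared that were higher and 3.33% that were lower. In LOVO, 1 gene was higher (SNAI1) and 1 was lower (SNAI2), against 8.57% and 7.85% of all genes. ESRP1, GRHL2 and OVOL1 had at most 6 reads in either library labelled LOVO, so that they could not be lower past 1 in this count. Between adherent cells, 2 were higher in the library labelled LOVO (ZEB1 and SNAI2) and 4 were lower (ESRP1, GRHL2, OVOL1 and SNAI1), against 17.4% and 16.4% of all genes. Between spheroids, ZEB1 was higher and ESRP1, GRHL2 and OVOL1 were lower, against 17.7% and 15% of all genes. ESRP1, GRHL2 and OVOL1 passed the filter through HCT116 alone and ZEB1 through LOVO alone, so these 4 had to differ between the lines, and the counts are given as a description. SNAI1 between spheroids lay at the border, with a difference of -0.99.

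The 2 lines were also fitted together with limma on log2(FPKM + 1), with cell line and growth form as terms and 1 residual degree of freedom, the lines or growth forms standing in for replicates. After Benjamini-Hochberg adjustment over the 14429 genes, 0 genes (0%) were called for growth form by limma, although 1545 had an unadjusted p under 0.05, and the smallest adjusted p was 0.462. SNAI2 had an estimate of -1.13 (SE 0.309, limma adjusted p = 0.462) and ESRP2 one of -0.54 (SE 0.237, limma adjusted p = 0.472). For SNAI1 and ZEB1, whose lines moved apart, the shared estimates were 0.45 (SE 0.636) and 0.00 (SE 0.311, to 2 decimals). For cell line, limma called 24.7% of all genes and 4 of the 8. These 4 are the genes that had to differ through the filter, so their values are given as a description, and with no filter on low values limma called 0 of the 10. They were ESRP1 (LOVO minus HCT116 -4.86, SE 0.318, adjusted p = 0.00438), GRHL2 (-2.86, SE 0.277, adjusted p = 0.00744), OVOL1 (-2.81, SE 0.278, adjusted p = 0.00751) and ZEB1 (1.59, SE 0.311, adjusted p = 0.0278). SNAI1 (-2.27, limma adjusted p = 0.0615), SNAI2 (1.11, limma adjusted p = 0.0606), ESRP2 (0.46, limma adjusted p = 0.211) and TWIST1 (0.29, limma adjusted p = 0.454) did not pass. On simulated data the share of false calls of this model was above the threshold of 0.05. The simulation held no opposite changes in the lines such as those of SNAI1. The error behind these adjusted p-values was therefore not measured, and they may understate it.

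The genes with the most similar profile, by Euclidean distance between log2(FPKM + 1) values centred on their mean over the 4 libraries, were sought among 11686 protein-coding genes. OVOL1 was the nearest gene to GRHL2, at a distance of 0.0523, and GRHL2 was the second nearest to OVOL1, after DGLUCY (0.0454). The nearest to ESRP1 were GTSF1, FABP5 and RAB25, the last with 41.1, 31.5, 0.0328 and 0.0293 FPKM in HCT116 adherent cells, HCT116 spheroids, LOVO adherent cells and LOVO spheroids. SDC4 was the nearest to SNAI1 (0.214), NFE2L2 to SNAI2 (0.189), ALG3 to ZEB1 (0.0767) and SDHAF2 to TWIST1 (0.0247). With 4 libraries such a match is a description only.

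Paralogs of the 10 genes carried some of the same families in the libraries labelled LOVO. TWIST2 had 0 FPKM in both HCT116 libraries, 7.48 in LOVO adherent cells and 20.46 in LOVO spheroids, where it was above TWIST1. SNAI3 had 4.59 FPKM in HCT116 adherent cells, 6.98 in HCT116 spheroids, 0.161 in LOVO adherent cells and 7.89 in LOVO spheroids. GRHL1 had 3.89, 2.98, 0.841 and 1.44 FPKM, so that this Grainyhead-like transcript had 120 and 230 reads in the libraries where GRHL2 had at most 1. GRHL3 and OVOL3 reached at most 2.40 and 0.591 FPKM. RBM47, an RNA-binding protein that shares exon targets with the ESRP proteins, was higher in LOVO (6.56 and 6.98 FPKM) than in HCT116 (3.16 and 3.06 FPKM).

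Epithelial genes known to be repressed by the ZEB and SNAI factors or maintained by GRHL2 were lower past 1 in the libraries labelled LOVO in 21 of 30 cases in adherent cells and in 20 of 30 in spheroids. Of all genes compared, 16.4% and 15% were lower. Of these 30, 7 were under 1 FPKM in both libraries labelled LOVO, so that they passed the filter through HCT116 alone and had to be lower in at least 1 growth form. In either growth form 0 of the 30 were higher past 1. The median difference was -1.77 in adherent cells beside 0.07 over all genes, and -1.39 in spheroids beside 0.04. CDH1 had 31.1 FPKM in both HCT116 libraries and 0.117 and 0.00805 in LOVO adherent cells and LOVO spheroids, and EPCAM, an epithelial adhesion molecule, had 85.6, 79.3, 0.930 and 1.499 FPKM. From adherent cells to spheroids the 30 genes had a median of -0.06 in HCT116, with 1 higher past 1 and 1 lower (CLDN7). In LOVO the median was -0.01, with 4 higher and 3 lower (PKP3, KRT8 and KRT19). Of all genes compared, 2.19% were higher and 3.33% lower in HCT116, and 8.57% and 7.85% in LOVO. The serine protease PRSS8 (0.556 to 20.05 FPKM), CLDN4 (0.320 to 10.5), CLDN3 (1.18 to 11.9) and the protease inhibitor SPINT1 (3.02 to 14.1) were the 4 higher in LOVO spheroids than in LOVO adherent cells.

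**Figure D4:**
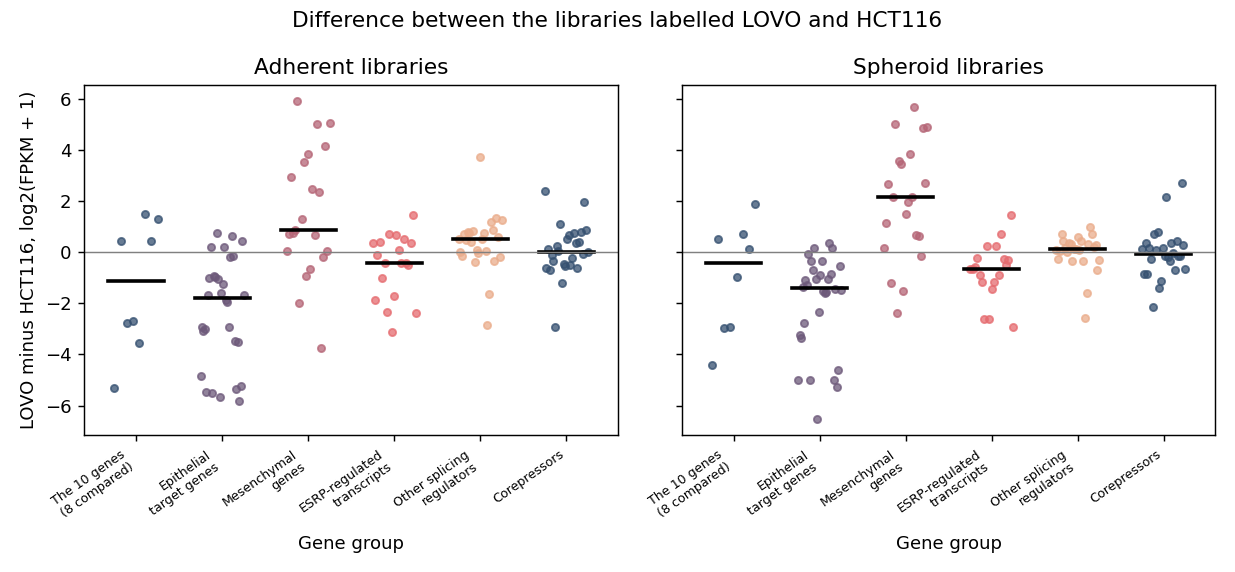
Difference between the library labelled LOVO and that of HCT116 on the log2(FPKM + 1) scale (vertical axis) for adherent cells (left) and spheroids (right); points are the genes of each group that reached a mean FPKM of 1 and black lines are medians. Most epithelial target genes lie below 0 and the mesenchymal genes extend highest. The medians are 0.02 and -0.08 for corepressors and 0.51 and 0.14 for other splicing regulators. In adherent cells both of these groups hold genes past 1 in each direction.

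Of 30 genes of mesenchymal cells, 21 had a mean FPKM of at least 1, and of these 10 were higher and 2 lower past 1 in the adherent library labelled LOVO, with a median of 0.85, and 14 were higher and 3 lower in the spheroid library, with a median of 2.16. Over all genes 17.4% were higher and 16.4% lower in adherent cells, and 17.7% and 15% in spheroids. Of the 21, 9 were under 1 FPKM in both HCT116 libraries and so passed the filter through LOVO alone, where they had to be higher in at least 1 growth form. VIM (vimentin) had 0.219 and 0.115 FPKM in HCT116 adherent cells and HCT116 spheroids and 39.4 and 32.2 in LOVO adherent cells and LOVO spheroids, and CDH2 (N-cadherin) had 0.0396, 0.0120, 6.98 and 5.46 FPKM. From adherent cells to spheroids 1 was higher (COL1A1) and 4 lower (AXL, CTGF and CYR61 among them) in HCT116, and 6 were higher and 2 lower (FSTL1 and CTGF) in LOVO. The shares of all genes were 2.19% higher and 3.33% lower in HCT116, and 8.57% and 7.85% in LOVO. TNC, a matrix glycoprotein (0.0752 to 5.92 FPKM), and ITGA5, the fibronectin receptor subunit (8.32 to 58.6), were among those higher in LOVO spheroids, whereas CTGF fell below its adherent level in both lines (26.6 to 5.55 FPKM in HCT116 and 5.98 to 0.255 in LOVO). The counts are a description.

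Promoters with the E-box bound by the ZEB and SNAI factors are shown because most of the epithelial target genes differed between the lines. The RefSeq promoter table (GRCh38.p14, 250 bases before to 50 after each start) held 2 of the 10 genes, ZEB1 and ZEB2, and 14 of the 30 epithelial genes. The E-box CAGGTG, on either strand, was found in 6 of the 14 and in 20.6% of all 35116 promoters. The GRHL motif AACCGGTT was in 0 of the 14 and in 0.134% of all promoters, and the OVOL motif CCGTTA was in 1 of the 14 and 1 of the 2, ZEB2, and in 3.07% of all. CRB3, a polarity gene that held 5 E-boxes, at positions -228, -208, -147, -89 and -60 from its start, had 18.3 and 21.2 FPKM in HCT116 adherent cells and HCT116 spheroids and 8.55 and 8.05 in LOVO adherent cells and LOVO spheroids. RAB25, a GTPase of epithelial traffic with the levels given above, held 1 at position -41 and 1 at position 38. ZEB1 held 1 at position -57. CRB3 and RAB25 were chosen for display after their values were seen. The other epithelial genes with an E-box were CLDN3, OCLN, PATJ and DSP. In HCT116 adherent cells and LOVO adherent cells CLDN3 had 16.5 and 1.18 FPKM and OCLN 7.23 and 0.0742. PATJ had 7.16 and 6.24 FPKM and DSP 41.0 and 47.4. Among genes with 0 E-boxes, CLDN4 (57.6 and 0.320 FPKM) and CGN (13.7 and 0.725) were lower in LOVO and JUP (88.1 and 148) was higher. A relation of E-boxes to levels was not tested. The 250 bases before each start are printed with E-boxes in capitals.
CRB3, chr19:6464021-6464270, plus strand: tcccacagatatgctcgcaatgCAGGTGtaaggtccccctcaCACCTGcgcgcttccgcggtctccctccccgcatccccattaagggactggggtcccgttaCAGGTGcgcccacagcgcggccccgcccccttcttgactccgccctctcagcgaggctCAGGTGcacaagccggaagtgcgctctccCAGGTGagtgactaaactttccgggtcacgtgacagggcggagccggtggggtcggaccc
RAB25, chr1:156060910-156061159, plus strand: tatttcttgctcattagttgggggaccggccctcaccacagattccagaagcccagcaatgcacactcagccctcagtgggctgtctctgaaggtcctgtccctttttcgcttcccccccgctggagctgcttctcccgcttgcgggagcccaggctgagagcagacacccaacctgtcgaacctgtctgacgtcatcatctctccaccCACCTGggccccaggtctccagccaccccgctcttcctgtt
ZEB1, chr10:31318167-31318416, plus strand: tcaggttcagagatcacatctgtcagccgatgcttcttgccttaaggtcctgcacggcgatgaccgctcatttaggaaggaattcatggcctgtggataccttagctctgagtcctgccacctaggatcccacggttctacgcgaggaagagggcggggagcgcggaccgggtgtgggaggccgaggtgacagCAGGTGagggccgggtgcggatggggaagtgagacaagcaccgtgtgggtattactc
No binding was measured at any of them.

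Of 20 genes whose exons the ESRP proteins regulate, 19 had a mean FPKM of at least 1. The gene-level FPKM cannot show exon choice, so only their amount is given. In HCT116 0 of them differed past 1 between growth forms, beside 2.19% higher and 3.33% lower over all genes. In LOVO spheroids 1 was higher, CD44 (11.6 to 33.4 FPKM), and 1 was lower, beside 8.57% and 7.85%. Between the lines 1 was higher and 6 were lower in the libraries labelled LOVO in each growth form. Over all genes 17.4% were higher and 16.4% lower in adherent cells, and 17.7% and 15% in spheroids. The medians were -0.42 in adherent cells and -0.66 in spheroids, beside 0.07 and 0.04 over all genes. FGFR2 had 8.02, 5.27, 0.758 and 0.0262 FPKM in HCT116 adherent cells, HCT116 spheroids, LOVO adherent cells and LOVO spheroids. FGFR2 was chosen after its values were seen, as the best known ESRP target.

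Of 25 other RNA-binding proteins that act on epithelial or mesenchymal exons, 6 were lower past 1 in LOVO spheroids than in LOVO adherent cells, 0 were higher and 19 did not differ past 1, beside 7.85% lower over all genes. Their median was -0.55 beside -0.06 over all genes. In HCT116 1 was higher (TIA1) and 0 were lower, beside 2.19% and 3.33% of all genes, with a median of -0.29 beside -0.03. MBNL3 had 24.5 FPKM in LOVO adherent cells and 2.40 in LOVO spheroids, and SRSF1 had 48.7 and 13.9 FPKM. SRSF3 fell from 72.6 to 30.9 FPKM and HNRNPK from 201 to 87.0 FPKM in the same comparison, and PTBP1 and HNRNPM were the other two. ESRP2 moved the same way in LOVO, by less than 1.

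The corepressors and chromatin enzymes that the ZEB and SNAI factors recruit were all expressed, with 26 of 26 at a mean FPKM of at least 1. In HCT116 spheroids 0 were higher past 1 and 2 lower, SUV39H1 and DNMT3B (median -0.23). In LOVO spheroids 1 was higher, LOXL2, and 2 lower, AJUBA and SIRT1 (median -0.47). Over all genes 2.19% were higher and 3.33% lower in HCT116 (median -0.03), and 8.57% and 7.85% in LOVO (median -0.06). The counts are given as a description. LOXL2, a lysyl oxidase that acts with SNAI1, had 24.8 FPKM in LOVO adherent cells and 126 in LOVO spheroids, the comparison in which SNAI1 was called higher. AJUBA, a LIM protein corepressor of SNAI1, went the other way, from 73.4 to 8.45 FPKM, and the histone methyltransferase SUV39H1 was lower in HCT116 spheroids (2.86 to 0.636 FPKM). Of 28 kinases, ubiquitin ligases and deubiquitinases that act on SNAI, ZEB or TWIST proteins, 0 differed past 1 in HCT116. In LOVO spheroids 0 were higher and 1 was lower, the kinase LATS2 (13.3 to 4.78 FPKM), beside the same shares of all genes.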

How the data were processed

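RNA was sequenced from 4 libraries, 1 per cell line and growth form, prepared with the SMARTER mRNA-Seq kit per the labels. The authors deposited FPKM values per gene, with gene length, for 58735 genes. The aligner and counter are not given in the sources used here. The submitters' processing notes list the mouse builds GRCm38 and mm10, whereas the identifiers and coordinates of the table are those of human GENCODE 29 (GRCh38), equal for all 10 genes. The study used edgeR, which was not run here because FPKM are not counts. FPKM multiplied by length gave whole reads for 100% of values (within 0.01 reads); the reads were used only for depth and exact Clopper-Pearson intervals. The library sizes behind the FPKM were 0.907 to 1.09 times the reads on genes, so a scaling between libraries is already in the values.

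Differences were taken on log2(FPKM + 1) with a pseudocount of 1, among genes whose mean FPKM was at least 1. limma 3.58.1 in R 4.3.3 fitted cell line and growth form, with Benjamini-Hochberg adjustment and a threshold of 0.05, and was tested on simulated data. The alternatives were pseudocounts of 0.1 and 0.01, TPM, TMM-style scaling, median centring, no filter, a mean FPKM of at least 5, protein-coding genes only and no covariate. The 10 genes and the gene lists were chosen with earlier results of these data known. Named from each list were at most 4 genes with the largest difference between growth forms in either line, besides CDH1, CDH2, VIM, EPCAM, MIR200CHG, RBM47, the paralogs, cell type markers and 3 nearest profiles per gene. Genes behind counts of 5 or fewer were named after their values were seen. Promoters, microRNAs and 3'UTRs came from RefSeq and GENCODE 29. Promoters of the other 8 genes, and proteins, were not analysed here. Some genes that these rules would name are not reported here.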

Additional observations from a re-analysis of the deposited data

Results flagged for a closer look

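SNAI1 and ZEB1 moved in opposite directions in the 2 lines from adherent cells to spheroids, with counting intervals that leave out 0 on each side. For SNAI1 the difference on the log2(FPKM + 1) scale was -0.83 in HCT116 and 1.73 in the libraries labelled LOVO. For ZEB1 it was -0.31 in HCT116 and 0.30 in the libraries labelled LOVO. With 1 library per condition the difference between the lines was not tested.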

How the results depend on the processing

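Of 32 differences, 8 genes in 4 comparisons, 30 kept their sign in every setting and 2 did not, those of ESRP1 and OVOL1 between growth forms in LOVO, where the genes had 6 reads and 1 read. In HCT116 spheroids 1 gene was lower past 1 with a pseudocount of 0.1 (SNAI2) and 2 with 0.01 (SNAI2 and ZEB1), against 0. Between spheroids of the lines 2 genes were higher with a pseudocount of 0.1 or 0.01 and with TPM, against 1, the added gene being SNAI2, and 4 were lower with either pseudocount and with median centring, against 3, the added gene being SNAI1. TPM shifted the median of all genes between the lines to 0.13 in adherent cells and 0.26 in spheroids. With a mean FPKM of at least 5, fewer genes were counted: 0 were lower in LOVO spheroids, 0 higher and 2 lower between adherent lines, and 0 higher and 1 lower between spheroid lines. With no filter on low values limma called 0 of 58735 genes for cell line, with 6918 at an unadjusted p under 0.05, against 3564, and elsewhere 2645 to 3843; of the 10 genes 0 were called there and 5 of 8 with TPM, against 4. TMM-style scaling and median centring moved none of the 32 differences themselves beyond their counting intervals. A library could not be left out, since each condition has 1. Growth forms were paired within lines by the cell line term of limma, and without that term limma called 0 genes for growth form as well. Depth limits ESRP1, GRHL2, OVOL1 and OVOL2 in LOVO, with at most 6 reads.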

Other observations

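Of 26 genes of signals upstream of EMT with a mean FPKM of 1 or more, 5 were higher in LOVO spheroids than in LOVO adherent cells by over 1 on the log2(FPKM + 1) scale. In that comparison 1 was lower (MET) and 20 did not pass, beside 8.57% higher and 7.85% lower over all genes. In HCT116 1 was higher (JAG1) and 0 were lower, beside 2.19% and 3.33%. IL6, an inflammatory cytokine, had 2.53 FPKM in LOVO adherent cells and 102 in LOVO spheroids, TNF had 0 and 6.85, TGFB3 had 2.13 and 10.3 and TGFB1 had 12.2 and 44.7 FPKM. HIF1A was the other one. In HCT116 adherent cells and spheroids IL6 had 0 and 0.115 FPKM, TNF 0.0878 and 0.0710, TGFB3 0.449 and 0.497 and TGFB1 22.0 and 27.4. The difference between the lines was not tested.

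Other transcription factors described as inducers of EMT were also read. Of 8 with a mean FPKM of 1 or more, 2 were higher past 1 in HCT116 spheroids and 0 lower, beside 2.19% and 3.33% of all genes. In LOVO spheroids 0 were higher past 1 and 2 lower, beside 8.57% and 7.85%. SOX4 had 42.8 FPKM in HCT116 adherent cells and 213 in HCT116 spheroids, against 11.7 and 9.67 in those of LOVO. FOXQ1 had 0.425 and 3.12 FPKM in HCT116 and 5.00 and 0.796 FPKM in LOVO, and FOXC1 had 21.4 and 34.4 FPKM in HCT116 and 28.1 and 11.1 FPKM in LOVO. SOX9 was nearly absent from LOVO, at 0.0567 and 0.467 FPKM, against 39.8 and 64.4 FPKM in HCT116. Of 7 other epithelial transcription factors, 1 was higher past 1 and 0 lower in HCT116 spheroids, beside the same shares of all genes. In LOVO spheroids 1 was higher and 1 lower, again beside the same shares. EHF was the one higher in both lines (5.15 and 18.6 FPKM in HCT116, 2.99 and 14.5 FPKM in LOVO). KLF4 was the one lower in LOVO spheroids (12.8 and 5.32 FPKM). With 1 library per condition none of these differences has a replicate check.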
